A study of Mus musculus with 20 samples.

Results

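The 10 genes described here belong to the unfolded protein response and the integrated stress response, and they were followed in mouse kidneys with and without Pkd2. They were chosen by name out of the 24411 gene symbols in the table of counts, and were Ern1, Atf6, Eif2ak3, Xbp1, Atf4, Ddit3, Hspa5, Trib3, Chac1 and Asns. All 10 were in the table, and each had at least 5 counts in every mouse. RNA of whole kidneys was sequenced from 20 mice, 1 library each, 5 for each combination of sex and genotype.

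All 20 mice carried floxed Pkd2 alleles (Pkd2fl/fl), all received doxycycline (DOX) at 50 mg/kg daily from P27 to P29, and all were killed at P125. Mutants carried both Pax8rtTA, a DOX-dependent activator under the Pax8 promoter, which is active along the tubule, and TetOCre, which it switches on. Controls lacked 1 of these transgenes. The deletion was therefore limited to tubule cells, while the RNA came from every cell of the kidney, and in such bulk samples fewer cells of a type cannot be told apart from less RNA per cell. Both sexes came from 3 litters (A, B and C), and single mice are named by sex, genotype and number, so that FM4 is a female mutant and MC3 a male control. Kidney weight as a percentage of body weight (KBW) was 1.68 ± 0.338 (SD, n = 5) in male mutants, 1.18 ± 0.261 (SD, n = 5) in female mutants, 0.693 ± 0.117 (SD, n = 5) in male controls and 0.615 ± 0.0448 (SD, n = 5) in female controls.

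Libraries held 11307741 to 19324073 counts. Pkd2, the targeted gene, had 250 to 332 CPM (counts scaled to the effective size of each library) in male controls and 110 to 133 in male mutants, and 193 to 306 CPM in female controls and 93.4 to 181 in female mutants, so no mutant reached a control of its sex. The library of FM4 stood apart, with 14850 genes detected against 16776 to 17724 in the other 19, and its effect is given beside some of the results. It also held only 76 genes with exactly 1 count, where the other libraries held 708 to 859, and the cause was not tested. Markers of cell types and of cell states also differed by genotype. In mutants of both sexes together, 8 of 8 tested macrophage genes, 8 of 8 cell division genes and 9 of 10 tubule injury genes passed the test upward, and 6 of 7 genes of the loop and distal tubule passed it downward. Of all genes 10.0% passed upward and 5.86% downward. Only 1 of 10 proximal tubule genes passed, downward, and 0 of 6 endothelial genes did. In females alone 0 of 8 macrophage genes passed. The summed macrophage markers were 120 to 194 CPM in the 10 controls and 166 to 858 CPM in the 10 mutants, and none of those markers was at 0 in all mice. The part of these cells and cell states in the results below was not tested.

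The endoplasmic reticulum (ER) has 3 stress sensors. When unfolded proteins pile up, IRE1 alpha (encoded by Ern1) splices the mRNA of Xbp1, ATF6 is cut to release a transcription factor, and PERK (Eif2ak3) phosphorylates the initiation factor eIF2 alpha. The last step slows most translation but favours ATF4, and other kinases that sense amino acid shortage, heme shortage or viral RNA reach ATF4 by the same phosphorylation, so that this arm is called the integrated stress response. Tubule cells secrete and reabsorb large amounts of protein, and both responses are commonly studied in kidney injury.

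The 4 promoters below are shown because each holds a sequence that a regulator of these responses is known to bind, in capitals. Sequences were taken from RefSeq (GRCm38.p6), which had a window for 9 of the 10 genes, all but Atf6. Each window printed is 250 bases long, 5′ to 3′ on the gene's strand, and ends at the base before the annotated start, except that of Trib3, which ends 22 bases past it. They lie at chr2:34771840-34772089 (+) for Hspa5, chr2:152344039-152344288 (−) for Trib3, chr2:119350992-119351241 (+) for Chac1 and chr6:7693210-7693459 (−) for Asns.
Hspa5: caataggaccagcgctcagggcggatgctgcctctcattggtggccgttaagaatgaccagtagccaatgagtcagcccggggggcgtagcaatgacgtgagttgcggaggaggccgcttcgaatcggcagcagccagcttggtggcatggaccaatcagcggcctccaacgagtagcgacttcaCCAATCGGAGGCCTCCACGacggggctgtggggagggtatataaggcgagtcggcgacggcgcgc
Trib3: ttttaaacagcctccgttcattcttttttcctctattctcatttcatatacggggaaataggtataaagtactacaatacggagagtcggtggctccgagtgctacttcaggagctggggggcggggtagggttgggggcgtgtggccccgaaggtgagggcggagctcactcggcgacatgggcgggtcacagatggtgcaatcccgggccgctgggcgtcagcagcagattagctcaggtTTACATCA
Chac1: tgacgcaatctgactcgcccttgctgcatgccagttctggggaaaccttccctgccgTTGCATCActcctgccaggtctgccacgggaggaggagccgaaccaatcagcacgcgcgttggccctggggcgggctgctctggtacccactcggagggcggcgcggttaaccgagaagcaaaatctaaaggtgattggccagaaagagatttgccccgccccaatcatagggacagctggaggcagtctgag
Asns: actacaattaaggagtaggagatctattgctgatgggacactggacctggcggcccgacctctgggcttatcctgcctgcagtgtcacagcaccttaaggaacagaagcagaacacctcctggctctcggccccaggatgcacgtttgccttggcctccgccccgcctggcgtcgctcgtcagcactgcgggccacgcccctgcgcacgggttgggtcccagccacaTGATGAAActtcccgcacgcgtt

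In the Hspa5 promoter the capitals mark an ER stress response element (ERSE), CCAAT, 9 bases of any kind and CCACG, bound by ATF6 together with NF-Y; it begins 65 bases before the start. Both strands of windows of 300 bases, from 250 before the start to 50 after it, were searched, and 39 of 32851 such windows (0.119%) held this element. Capitals in the other 3 promoters mark the CARE sequence TGATGNAA, where ATF4 binds with a C/EBP partner. It began 15 bases after the start in Trib3, where it read TTACATCA and lay on the opposite strand. In Chac1 it began 193 bases before the start, also on the opposite strand, as TTGCATCA, and in Asns 23 bases before the start, as TGATGAAA. Of the same 32851 windows, 1304 (3.97%) held CARE, a share to be set beside 3 of 9 members. The elements ERSE-II (ATTGGNCCACG, in 0.0365% of windows) and UPRE (TGACGTGG, in 0.676%) were searched in the same way, and neither was found in the windows of the 9 members. A match is a string of letters and does not show binding.

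Levels differed widely among the 10 genes. Per kilobase of exon (GENCODE M21), Hspa5, which encodes the ER chaperone BiP, stood at 145 ± 14.4 CPM per kb in male controls (SD, n = 5). Xbp1 at 49.1 ± 11.1 and Atf4 at 38.0 ± 4.05 CPM per kb came next and overlapped each other. Atf6 (8.28 ± 0.829), Eif2ak3 (7.32 ± 0.396) and Ddit3 (6.22 ± 0.722) formed a lower tier in the same unit, in which neighbours were within the sum of their SDs. Asns at 2.43 ± 0.886 and Ern1 at 2.08 ± 0.689 overlapped, as did Trib3 at 0.429 ± 0.167 and Chac1 at 0.341 ± 0.0809 CPM per kb. Trib3 rested on 7 to 71 counts per library and Chac1 on 5 to 39, so counting error is a large part of their spread, while Hspa5 rested on 6161 to 14273.

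**Figure D1:**
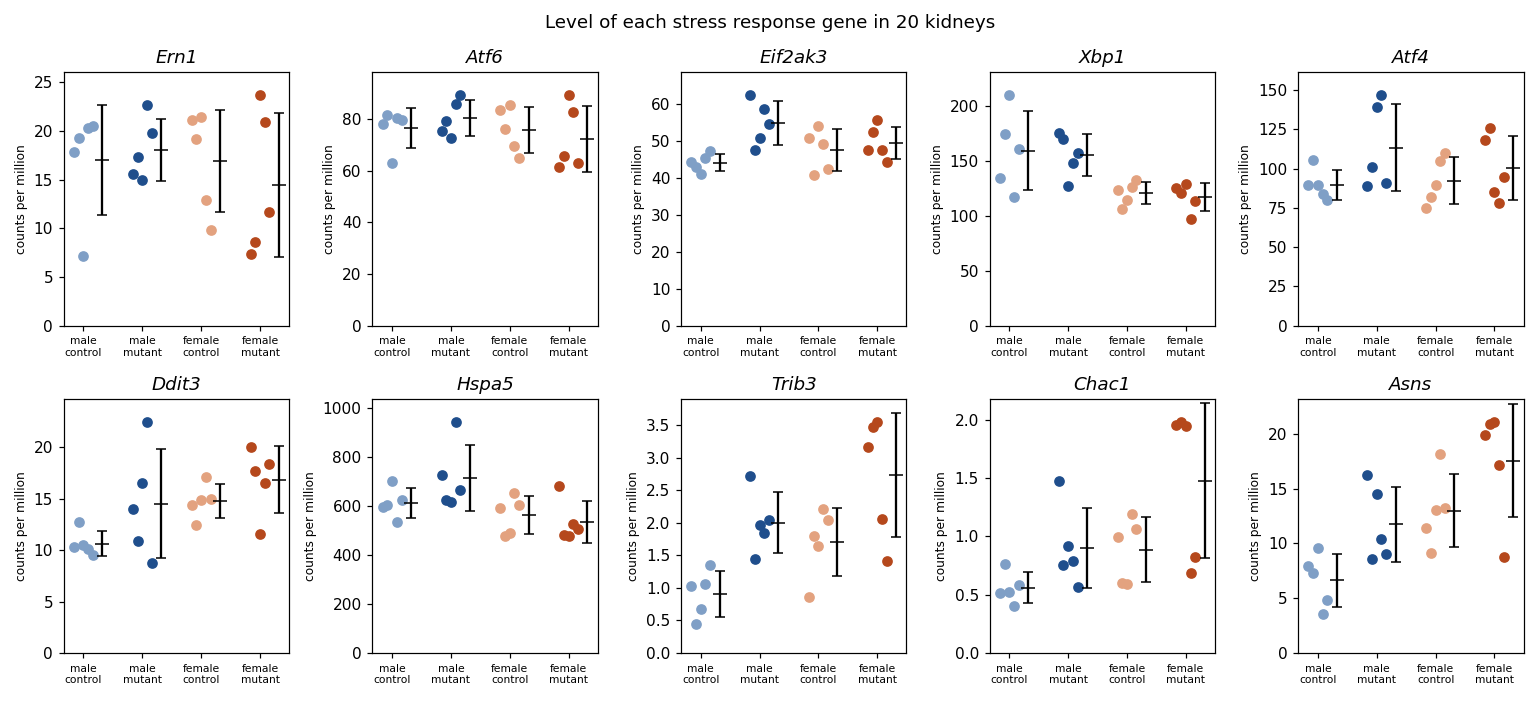
Level in CPM (linear axis from 0) of each of the 10 genes in the 20 kidneys, 5 mice per group, with the mean and SD of the group to the right of its points. Trib3 is the gene whose 5 male mutants all lie above the 5 male controls by the widest ratio of means (2.00 against 0.912 CPM), and Ern1 shows low values in every group but the male mutants.

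The first comparison asked which of the 10 genes changed when Pkd2 was lost. In both sexes together 1 of the 10 passed the threshold, an adjusted p under 0.01 (edgeR quasi-likelihood test, Benjamini-Hochberg over all genes tested), beside 2252 of 14191 genes (15.9%) over the whole table, 10.0% upward and 5.86% downward. That gene was Trib3, which rose in mutants, and Asns and Chac1, which like Trib3 are targets of ATF4, had the next largest fold changes without passing. In males 0 of 10 passed with edgeR, beside 8.46% of all genes (5.25% upward and 3.2% downward). DESeq2's Wald test called 1 of the 10 in males (Asns), beside 10.5% of all genes. An unadjusted p under 0.05 was found for 3 of the 10 in males, where 33.7% of all genes had one. The number of genes called by edgeR in males depended on single mice, from 187 (1.32%) without MC4 to 1863 (13.2%) without MM2. In females 0 of 10 passed with either tool, and none had an unadjusted p under 0.05 with edgeR (20.6% of all genes did). Pkd2 itself did not pass in females with edgeR (adjusted p = 0.0276). Of all genes 0.637% were called by edgeR (0.457% upward and 0.18% downward) and 4.87% by DESeq2. The edgeR count ran from 3 genes without FC2 to 866 without FM4, with 0 of the 10 called in each of these fits. The median log2 fold change of the 10 genes was 0.27 in males, 0.12 in females and 0.19 in both sexes together, where the medians over all genes tested were −0.002, −0.003 and −0.012. Positive fold changes numbered 10 of 10 in males, 6 of 10 in females and 8 of 10 in both sexes together, where 49.6%, 49.5% and 47.5% of all genes were positive.

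Trib3, on chr2:152337422-152344032, encodes a pseudokinase that is induced by ATF4 and dampens ATF4 and AKT signalling. Its level was 1.03, 0.447, 0.675, 1.05 and 1.36 CPM in the 5 male controls and 2.72, 1.44, 1.97, 1.85 and 2.05 CPM in the 5 male mutants, so the groups did not overlap. Male groups also separated for genes far from the threshold, named below with Eif2ak3. The share of all genes that separated, in males or in both sexes together, was not counted. Female controls had 0.860, 1.80, 1.65, 2.21 and 2.04 CPM and female mutants 3.16, 3.48, 3.54, 2.06 and 1.41 CPM. In females 3 mutants lay above all controls, while FM4 and FM5 lay among them. The log2 fold change was 0.90 ± 0.23 (SE, 10 mutants and 10 controls), that is 1.86-fold, with an adjusted p of 0.0081 (edgeR). It was 1.13 ± 0.31 in males (adjusted p = 0.025, edgeR) and 0.71 ± 0.36 in females (adjusted p = 0.292, edgeR), and the 2 values were not shown to differ (sex-by-genotype term 0.45 ± 0.48, adjusted p = 1, edgeR). With single mice left out the female value ran from 0.44 (without FM1) to 1.00 (without FM5), and the sex-by-genotype term from 0.091 (without MM1) to 0.72 (without FC1). The call was near its limit: with each mouse left out in turn the log2 fold change stayed between 0.75 and 1.06, but the adjusted p ran from 0.00194 to 0.026 and stayed under 0.01 in 4 of 20 fits, those without MM2, FM4, FM5 or FC5. By litter, male mutants exceeded male controls by 1.38, 0.78 and 0.55 in mean log2 CPM in A, B and C. The female differences were 1.74, 0.62 and −0.50, and the last compared 1 mouse with 1.

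Asns, on chr6:7675169-7693254, encodes asparagine synthetase and is induced through ATF4 when amino acids are short. Male controls had 7.92, 7.28, 9.60, 3.57 and 4.84 CPM and male mutants 16.3, 8.56, 14.5, 10.4 and 9.04 CPM, with only MM2 and MM5 inside the range of the controls. In females the controls had 11.4, 9.11, 13.0, 18.2 and 13.2 CPM and the mutants 19.9, 20.9, 21.1, 17.1 and 8.81 CPM, so that 3 mutants again lay above all controls and FM5 below them. On the log2 scale the fold change was 0.94 ± 0.24 for males (adjusted p = 0.0187, edgeR), 0.42 ± 0.24 in females (adjusted p = 0.349, edgeR) and 0.65 ± 0.19 in both sexes together (adjusted p = 0.0146, edgeR). DESeq2's Wald test called it in males (0.95, adjusted p = 0.000882) and in both sexes together (0.65, adjusted p = 0.00311). With single mice left out, Asns in males ran from 0.67 (without MC4, adjusted p = 0.0936) to 1.19 (without MM2, adjusted p = 0.00124), and 9 of 10 of these fits left it uncalled (edgeR). In females it ran from 0.27 (without FC2) to 0.66 (without FM5), uncalled in all 10. In both sexes together 4 of 20 such fits called it, those without MM2, FC4, FM5 or FC5, with adjusted p from 0.00247 to 0.0456 over the 20.

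Chac1, on chr2:119351229-119354381, encodes an enzyme that degrades glutathione and is a further ATF4 target. Its level was 0.514, 0.766, 0.525, 0.406 and 0.581 CPM in male controls and 1.47, 0.754, 0.917, 0.792 and 0.569 CPM in male mutants. Female controls had 0.992, 0.60, 0.589, 1.19 and 1.06 CPM, and female mutants 1.96, 1.98, 1.95, 0.685 and 0.822 CPM. FM1, FM2 and FM3 thus lay near each other and above every other mouse, and FM4 and FM5 lay within the controls. In both sexes together the log2 fold change was 0.75 ± 0.26 (adjusted p = 0.0387, edgeR), and with single mice left out it ran from 0.65 to 0.87 with adjusted p from 0.00953 to 0.107. It passed in 1 of those 20 fits, that without FM4 (0.84).

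The mice with the highest levels were largely shared by these 3 genes: among females FM1, FM2 and FM3 held the 3 highest values of each, and among males MM1 held the highest. Over the 20 mice the log2 CPM of Asns correlated with that of Chac1 at r = 0.80, or 0.64 with the group means removed, and with that of Trib3 at r = 0.70, or 0.29 with the group means removed. These correlations share libraries and group differences and are given as descriptions.

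**Figure D2:**
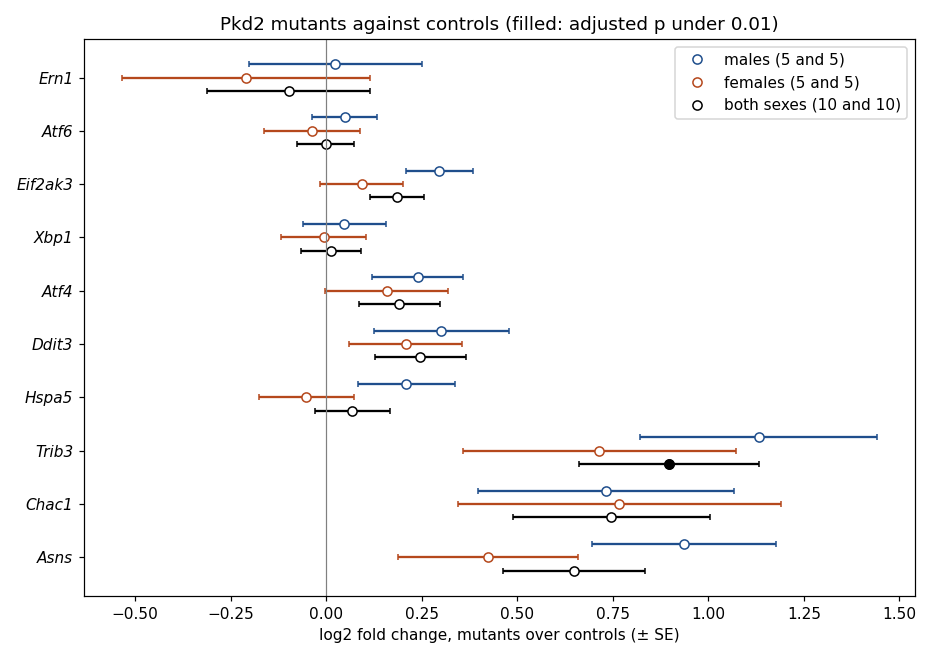
Log2 fold change of each gene in mutants over controls, with its SE, in males (blue), females (orange) and both sexes (black), with a filled point where the adjusted p was under 0.01. Trib3, Asns and Chac1 lie farthest to the right, and the filled point is that of Trib3 in both sexes (0.90).

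Of the 3 sensors, Eif2ak3 alone had groups that did not overlap, and this held in males only. This gene, on chr6:70844515-70905245, encodes PERK, and its level was 44.2, 42.8, 40.9, 45.4 and 47.1 CPM in male controls and 62.3, 47.5, 50.7, 58.4 and 54.4 CPM in male mutants. Every male mutant lay above every male control, by a margin of under 1 CPM between MM2 and MC5. Male groups also separated in this way for genes far from the threshold. Examples were Canx, an ER chaperone gene (adjusted p = 0.249, edgeR), and Eprs, a tRNA synthetase gene (adjusted p = 0.326, edgeR). The share of all genes that separated was not counted. In females the controls had 50.7, 40.9, 54.0, 49.1 and 42.3 CPM and the mutants 47.5, 52.2, 55.5, 47.4 and 44.2 CPM, which overlapped almost fully. The log2 value of mutants over controls was 0.30 ± 0.088 for males (adjusted p = 0.0347, edgeR) and 0.092 ± 0.11 in females (adjusted p = 0.706, edgeR), and neither passed. The difference between the sexes, 0.24 ± 0.13, had an unadjusted p of 0.0943 and an adjusted p of 1 (edgeR). With single mice left out the male value ran from 0.19 (without MM1) to 0.36, the female value from 0.021 (without FC2) to 0.13, and their difference from 0.084 (without MM1) to 0.30. Exons of Eif2ak3 share 485 bases, 8.05% of its exonic length, with Gm43292 on the opposite strand, and reads there cannot be assigned without strand.

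Ern1 (chr11:106394650-106487852) and Atf6 (chr1:170704674-170867771) encode the other two sensors and varied within groups more than between them. Ern1 had 17.9, 19.3, 7.12, 20.3 and 20.5 CPM in male controls, 15.6, 17.3, 14.9, 22.6 and 19.8 in male mutants, 21.2, 19.2, 21.4, 12.9 and 9.84 in female controls and 7.33, 8.57, 23.7, 21.0 and 11.7 in female mutants. Low values under 13 CPM thus occurred in 1 male control, 2 female controls and 3 female mutants. Atf6 was also low in MC3, FC5, FM1, FM2 and FM5, at 63.0, 64.7, 61.2, 65.8 and 62.8 CPM in that order. Its log2 fold change was −0.0011 ± 0.075 in both sexes together (95% interval −0.15 to 0.15), and that of Ern1 was −0.098 ± 0.21 (−0.52 to 0.32).

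The levels of Ern1 and Atf6 varied together with those of other long genes. The balance of long and short genes was taken, in log2 units, as the median deviation from the mean of each gene over the 3572 genes with the longest exons in sum minus that over the 3572 with the shortest, and ran from −0.43 in FC5 and −0.30 in FM1 to 0.35 in FM3. This measure was chosen after the values of Ern1 and Atf6 were seen, and both genes (8173 and 9231 exonic bases) are among the longest genes that define it, so the correlations are given as descriptions without a test. Over the 20 mice r was 0.87 for Ern1 and 0.86 for Atf6 (rho = 0.92 and 0.89), and still 0.87 and 0.86 with the 10 members left out of the balance. With the group means removed r was 0.91 and 0.90, and without the 2 mice farthest from the median 0.90 and 0.86. Among the 3572 longest genes, 127 (3.56%) had an r at or above that of Atf6. The other 8 members had r between −0.27 and 0.43. The cause of this balance was not tested. With the balance as a covariate in the model, a fit added after the data were seen, Trib3 remained called in both sexes together and Asns was called too (0.67, adjusted p = 0.00785, edgeR).

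**Figure D3:**
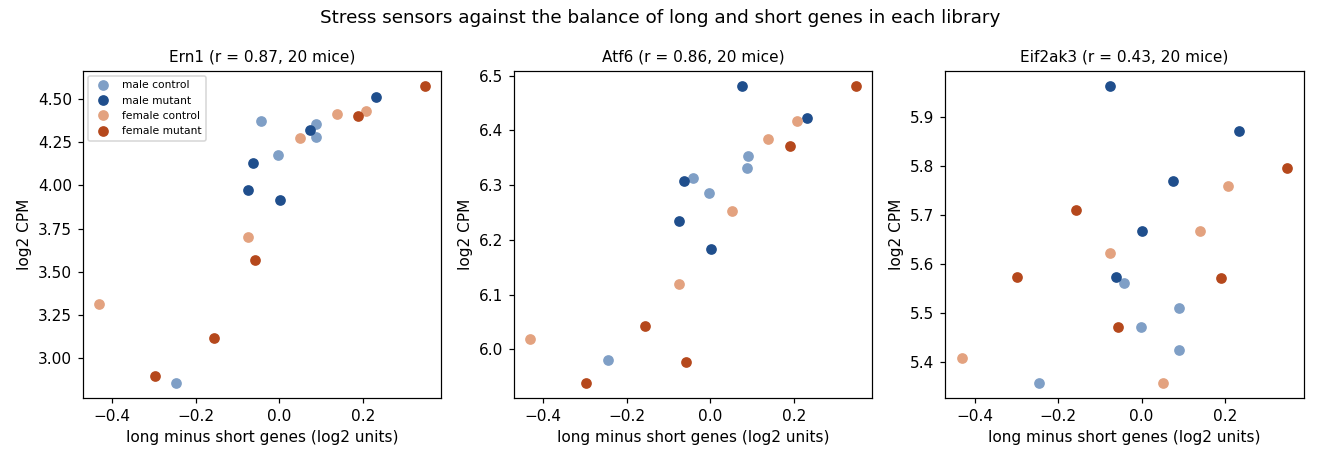
Log2 CPM of the 3 sensors against the balance of long and short genes in each library (log2 units), 1 point per mouse, coloured by group. Ern1 and Atf6 rise along the axis in all groups (r = 0.87 and 0.86), and Eif2ak3 less so (r = 0.43).

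Xbp1, on chr11:5520659-5525893, encodes the transcription factor made active by IRE1 alpha, which removes a short intron from its mRNA. Counts per gene cannot tell spliced from unspliced mRNA. Its level was 134, 174, 210, 117 and 161 CPM in male controls and 175, 170, 128, 148 and 157 in male mutants, and from 106 to 133 CPM in female controls and from 97.5 to 129 in female mutants, so that neither sex separated by genotype. The fold change with genotype was near 1 (log2 0.013 ± 0.078 in both sexes together, 95% interval −0.14 to 0.17).

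Hspa5, on chr2:34771970-34777547, is a target of ATF6 and the usual readout of ER stress. Hspa5 ranged from 533 to 701 CPM in male controls and from 615 to 942 in male mutants, where MM4 had the highest value, and from 479 to 653 in female controls and 476 to 684 in female mutants. All 4 ranges overlapped. Its log2 fold change, 0.21 ± 0.13 for males and −0.052 ± 0.12 for females, was 0.069 ± 0.097 in both sexes together (adjusted p = 0.651, edgeR, 95% interval −0.12 to 0.26).

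Atf4 (chr15:80255184-80257541) encodes the main effector of the integrated stress response and Ddit3 (chr10:127290774-127296288) the factor CHOP, linked to cell death under lasting stress. ATF4 is controlled mostly in translation, which RNA counts do not measure. Male mutants had 88.9, 101, 139, 147 and 90.5 CPM of Atf4 against 89.5, 105, 89.2, 84.1 and 80.0 CPM in male controls, so MM3 and MM4 stood above the controls. Female mutants had 118, 126, 85.4, 78.3 and 94.7 CPM and female controls 75.2, 81.9, 89.3, 105 and 110 CPM. The log2 fold change over both sexes was 0.19 ± 0.11 for Atf4 (adjusted p = 0.195, edgeR) and 0.25 ± 0.12 for Ddit3 (adjusted p = 0.14, edgeR). Without MC4 these values were 0.10 and 0.14, the lowest with any single mouse left out. Ddit3 was 8.76 to 22.4 CPM in male mutants, the highest again in MM4 and MM3, against 9.56 to 12.8 in male controls. Atf4 and Ddit3 correlated at r = 0.61 over the 20 mice, or 0.72 with the group means removed. Ddit3 shares 68 exonic bases (3.97%) with Mars on the opposite strand.

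The second comparison asked whether the 10 genes differed between the sexes. In controls 1 of the 9 members tested was called, lower in males, beside 2510 of 14123 genes (17.8%, with 8.75% higher and 9.02% lower in males), and Chac1 was not tested for low counts. That gene was Asns, at 6.64 ± 2.42 CPM in males and 13.0 ± 3.34 CPM in females (SD, n = 5 each), a log2 difference of −1.14 ± 0.27 (adjusted p = 0.00755, edgeR). The lowest female control lay below the highest male control, so the groups overlapped. Without MC4 the difference was −0.81 (adjusted p = 0.0782, edgeR), and leaving out any of 5 other controls (MC1, MC2, MC5, FC3 and FC5) also ended the call. Ddit3 was 10.7 ± 1.24 CPM in male controls and 14.8 ± 1.67 CPM in female controls, a log2 difference of −0.46 ± 0.13 (adjusted p = 0.0161, edgeR), which passed without the litter term (−0.43, adjusted p = 0.00687) and, of 10 fits with single mice left out, in that without FC2 (adjusted p = 0.0098, edgeR). Among mutants 0 of 10 members were called by edgeR beside 5.42% of all genes, 3.59% higher and 1.84% lower in males. An unadjusted p under 0.05 was found for 3 members (edgeR), beside 30.5% of all genes. DESeq2 called 0 members, beside 9.84% of all genes. The values closest to the threshold were those of Xbp1, 0.36 ± 0.11 higher in males (adjusted p = 0.0538, edgeR), and Hspa5, 0.41 ± 0.15 higher in males (adjusted p = 0.103, edgeR), while Asns, Trib3 and Chac1 had log2 differences of −0.52, −0.41 and −0.78, toward females. Without MM4 the difference of Hspa5 was 0.20. The sex-by-genotype term called 0 of 10 members and 0.0% of all genes (edgeR, no member with an unadjusted p under 0.05). DESeq2 called 0 members for this term, beside 0.0907% of all genes.

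Markers of other cells also differed between control sexes. All 5 podocyte markers, all 6 endothelial markers and 5 of 7 of the loop and distal tubule were called lower in males. Of 10 proximal tubule markers 3 were called higher in males (median log2 difference 0.081), and their sum, 42200 to 52350 CPM in males and 21460 to 28180 CPM in females, was carried largely by Kap, an androgen-regulated gene (31970 against 11590 CPM). Their part in the sex differences was not tested.

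The third question was whether the 10 genes followed the size of the cystic kidney. Over the 10 mutants 0 of 10 members passed an adjusted p under 0.05 for Pearson's r between log2 CPM and KBW, and neither did any of the 14820 genes tested (0.0%, permutation test, 2199 genes or 14.8% with an unadjusted p under 0.05). Eif2ak3 had r = 0.79 (two-sided permutation p = 0.00717, adjusted p = 0.168) and rho = 0.81 (permutation p = 0.0074). Xbp1 had r = 0.71 (permutation p = 0.0208, adjusted p = 0.24) and rho = 0.67 (permutation p = 0.0399), and Hspa5 had r = 0.53 (permutation p = 0.118, adjusted p = 0.456) and rho = 0.49 (permutation p = 0.155). These were the 3 of 10 members with an absolute r over 0.5, where 29.3% of all genes had one. Without MM1 and FM4, the mice farthest from the median KBW, r was 0.64 for Eif2ak3, 0.32 for Xbp1 and 0.43 for Hspa5. With single mutants left out r of Xbp1 ran from 0.58 (without FM4) to 0.91 (without MM2).

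Trib3, Chac1 and Asns had r = 0.25, 0.17 and 0.050 over the pooled mutants (permutation p = 0.487, 0.641 and 0.892, adjusted p = 0.773, 0.852 and 0.967, rho = 0.18, 0.14 and 0.055). Sex differed along both axes: mean KBW was higher in male mutants and the mean levels of these 3 genes were higher in female mutants. With the mean of each sex removed, r was 0.81 for Trib3 (exact permutation p = 0.00424, adjusted p = 0.113, rho = 0.90), 0.78 for Chac1 (exact permutation p = 0.0132, adjusted p = 0.134, rho = 0.82) and 0.69 for Asns (exact permutation p = 0.0303, adjusted p = 0.175, rho = 0.83). Eif2ak3 had 0.71 (exact permutation p = 0.0377, adjusted p = 0.192, rho = 0.71), whereas Xbp1 had 0.39 and Hspa5 0.095. None passed (0.0% of all genes did), and 23.2% of all genes had an unadjusted p under 0.05 in this form, beside 4 of the 10 members. The 14400 relabellings set a floor under this p. After adjustment over 14820 genes a single gene could not pass from that floor, so the absence of calls says little. Without MM1 and MM2, the mice farthest from the median on this scale, r was 0.77 for Trib3, 0.86 for Chac1, 0.56 for Asns, 0.39 for Eif2ak3, 0.61 for Xbp1 and −0.14 for Hspa5. FM4 was not left out in this form. It had the lowest KBW of the mutants (0.836) and the lowest Chac1 of the female mutants (0.685 CPM). With edgeR and sex as a covariate the slopes on KBW were 1.23 ± 0.46, 1.65 ± 0.60 and 1.02 ± 0.36 log2 units per percentage point for Trib3, Chac1 and Asns (adjusted p = 0.149, 0.14 and 0.127), beside 2.52% of all genes called in that fit. Over the 10 controls r was −0.11 for Trib3, −0.17 for Chac1, −0.57 for Asns and −0.014 for Eif2ak3, given as descriptions.

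**Figure D4:**
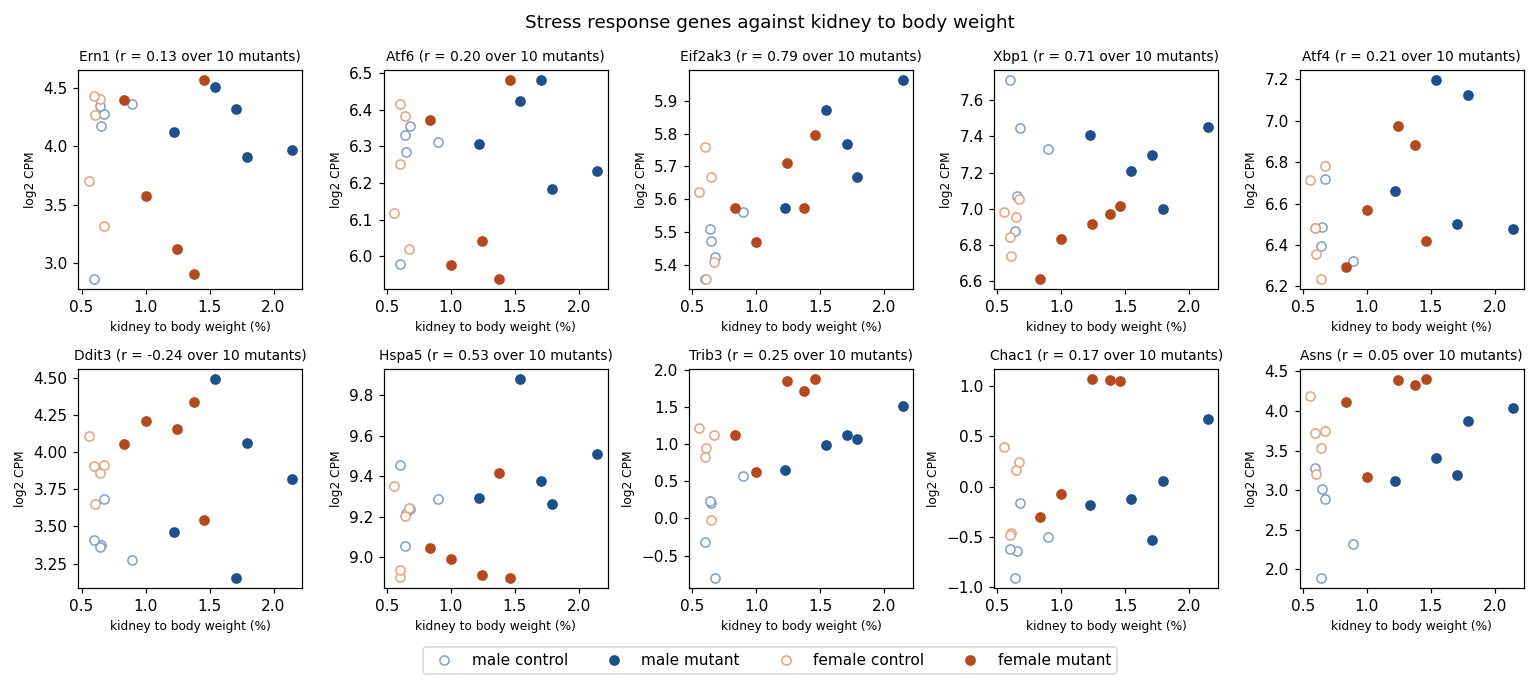
Log2 CPM of each gene against kidney weight as a percentage of body weight, 1 point per mouse, filled for mutants and open for controls, blue for males and orange for females, with Pearson's r over the 10 mutants in each title. Eif2ak3 rises with the ratio over all mutants (0.79), and Trib3, with a pooled r of 0.25, has its male and female mutants at different heights.

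The wider pathways were read from 9 lists, 190 genes in all, of which 184 were tested in both sexes together. Of these, 17 were called higher and 3 lower in mutants, where 15.9% of all genes were called. Of the 20 calls, 13 were in the lists linked to ATF4, and all lists were chosen with earlier results of these data known. Of 22 stress factors linked to ATF4, 6 rose and 1 fell (median log2 fold change 0.23), and of 23 genes of amino acid synthesis and uptake, 6 rose and none fell (median 0.22), while the median of all genes was −0.012. The largest rises of the first list were Atf3, an early stress factor, at 2.39 ± 0.25 (9.18 against 1.64 CPM, all mutants above all controls, adjusted p = 5.04e-06, edgeR), Stc2, a secreted glycoprotein, at 1.84 ± 0.25, and Nupr1, a stress-induced nuclear protein, at 1.40 ± 0.23. Vegfa, the endothelial growth factor, fell by 0.56 on the log2 scale (191 against 278 CPM). In the second list they were Mthfd1l, of mitochondrial folate metabolism, at 1.46 ± 0.18, Aldh18a1, of proline synthesis, at 1.07 ± 0.19, and Phgdh, the first enzyme of serine synthesis, at 0.94 ± 0.15 (38.3 against 20.1 CPM).

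Few genes of the ER lists passed. Of 26 ER chaperones and folding enzymes 2 rose, Dnajc10, an ER reductase, at 0.40 ± 0.051 (96.7 against 73.3 CPM, without overlap) and Pdia5, a disulfide isomerase, at 0.36 ± 0.073, with a list median of 0.094. Of 19 genes of ER-associated degradation and 27 further sensors and regulators 0 were called by edgeR, and 2 and 9 had an unadjusted p under 0.05, where 37.7% of all genes had one. Among 19 genes of ER translocation and vesicle coats 1 rose (Sec24d, 0.30 ± 0.068), as did 1 of 20 cytosolic tRNA synthetases (Vars, 0.31 ± 0.083) and 1 of 14 cytosolic heat shock genes (Hspb1, 1.14 ± 0.25). Of 14 genes of mitochondrial stress 2 fell, Trap1, a mitochondrial chaperone (−0.33 ± 0.063), and Yme1l1, a protease of the inner membrane (−0.21 ± 0.054), and 13 of the 14 fold changes were negative. Within the sexes 11 of 184 tested list genes rose and 2 fell in males, beside 8.46% of all genes called. In females 2 of 185 rose (Atf3 and Stc2), beside 0.637% of all genes. Without FM4 the list genes called in both sexes together numbered 32 and in females 7, beside 21% and 5.93% of all genes.

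**Figure D5:**
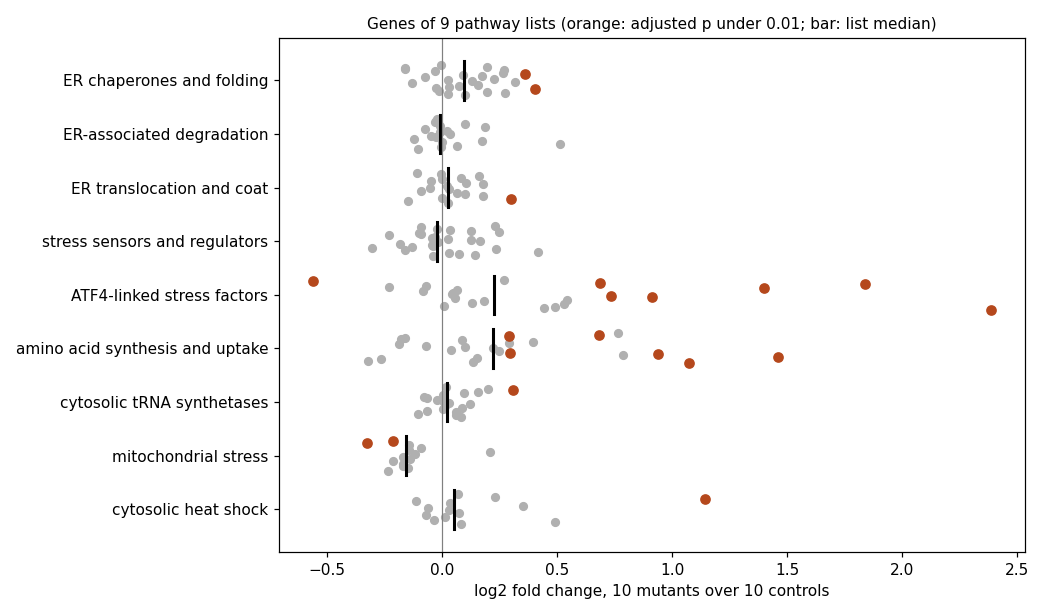
Log2 fold change in 10 mutants over 10 controls of each tested gene of the 9 lists, with orange points where the adjusted p was under 0.01 and a black bar at the median of the list. The orange points to the right lie mostly in the ATF4-linked stress factors and the amino acid list (6 in each), and those of mitochondrial stress lie to the left.

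The sequences printed above were also counted in the lists. The ERSE found in Hspa5 was present in 7 of 24 chaperone genes with a window (29.2%), among them Calr, Canx, Hsp90b1 and Pdia6, and in 2 of 15 genes of ER-associated degradation (Derl3 and Syvn1). CARE was present in 5 of 20 ATF4-linked stress factors (including Atf3 and Nupr1) and in 4 of 18 genes of amino acid synthesis and uptake (22.2%). Over the whole table, leaving the members out, 18 genes with ERSE were tested in both sexes together, with a median log2 fold change of 0.062. Of these 5.56% were called, 0 higher and 1 lower in mutants. The 291 genes with CARE had a median of 0.013 and 19.2% called (37 higher and 19 lower). Of the 10786 genes with any window 15.6% were called (1058 higher and 621 lower).

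For each member the genes with the most similar pattern over the 20 mice were sought among 13780 genes with a mean of at least 1 CPM (13781 for Chac1). Hspa5 was most like Hyou1, another ER chaperone (r = 0.87, or 0.82 with the group means removed), and Stip1, a co-chaperone of the cytosol (0.85 and 0.76). Eif2ak3 was most like Iars (0.86 and 0.79), an aminoacyl-tRNA synthetase, and Calu (0.84 and 0.78), an ER calcium-binding protein. For Ern1 they were Rassf8 and Creb3l2 (both 0.95), and for Atf6 Arhgef12 (0.97) and Uhmk1 (0.95), with Ern1 and Atf6 themselves at 0.94. Xbp1 was most like Gpr146 (0.86) and Rrs1 (0.83), Atf4 like Brd2 (0.80) and Ube2s (0.77), and Ddit3 like Tra2a (0.90) and Max (0.84). Trib3 was closest to Cd34 (0.91, or 0.74 with the group means removed) and Rdh12 (0.90 and 0.80), Chac1 to Mvp and Tnfrsf1a (both 0.91), and Asns to Fabp5 (0.88) and Steap1 (0.87). Without FM4 the 20 values were between 0.78 and 0.97.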

How the data were processed

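Whole kidneys of 20 mice were sequenced. Per the submitters' notes, fastp 0.23.2 and STAR 2.7.10b (mm10) were used, and the authors deposited raw counts, which are whole numbers, not normalized, with 1 row for each symbol. The counting tool, annotation and strandedness are not given in the sources used here. All 20 columns were used, and 0 of 190 pairs of libraries were identical.

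From the counts, R 4.3.3 and edgeR 4.0.16 gave CPM with TMM library sizes and log2 CPM with a prior count of 2. Genes kept by filterByExpr were tested by the quasi-likelihood method with litter (within a sex or genotype) or sex-by-litter (all mice) as covariate, with calls at an adjusted p under 0.01. SE is the log2 fold change divided by the root of F. Intervals of fold changes took the normal quantile for 95%, not the distribution of the test, so they are too narrow. For Ddit3 in both sexes together such an interval was 0.012 to 0.48, while its unadjusted p was 0.054 (edgeR). KBW took the weight given as that of 1 kidney. Correlations used 100000 permutations, exact enumeration within sex (14400 relabellings), and adjustment over all genes. Replicates are separate mice. The median SE of a log2 fold change was 0.107 in males, 0.15 in females and 0.0955 in both sexes together. On simulated data with 200 genes changed by 1 log2 unit, edgeR recovered 79.5% in the male, 67.5% in the female and 84.5% in the joint design (14010, 14439 and 14191 genes). Recovery was 79.5% between control sexes, 52.5% between mutant sexes and 43.5% for the sex-by-genotype term. The changed genes were drawn at random from all genes kept, so these shares do not carry over to single members. Trib3 and Chac1 had SEs of 0.23 and 0.26 in both sexes together, above the median, and most members had changes smaller than 1 log2 unit.

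The members and gene lists were chosen with earlier results of these data known. All 10 members are named, and from each pathway list at most the 3 largest called rises and 3 largest called falls in both sexes together. For each member the 2 genes with the highest r are named. The promoter genes and the list genes set beside them were named after the matches were seen. Promoters came from RefSeq, and exon lengths and gene positions from GENCODE M21 (GRCm38, the build called mm10). Alternatives were DESeq2 1.42.0 size factors, its Wald test, omitting the litter term, omitting the low-count filter, a single fit of all 20 mice, a minimum of 10 counts in each library, leaving out mice singly and, added after the data were seen, the balance of long and short genes as a covariate. For KBW they were rho, deviations from sex means, an edgeR slope with sex, DESeq2 size factors and a prior count of 0.5.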

Additional observations from a re-analysis of the deposited data

Results flagged for a closer look

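Each of the 10 genes was examined in each group of 5 mice, 40 groups in all, for a single mouse far from the other 4, and 3 were found, where chance alone flags about 1 group in 20. Ern1 in MC3 (7.12 CPM, with the next male control at 17.9) and Atf6 in the same mouse (63.0 CPM, with the next at 77.8) were low. MC3 also had the lowest balance of long and short genes of the male controls (−0.25), and the part of that balance in its values was not tested. Without MC3 the log2 fold change in males was −0.14 for Ern1 and −0.0040 for Atf6. Hspa5 in FM1 was high among female mutants (684 CPM, with the next at 528).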

How the results depend on the processing

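No paired analysis was possible because the replicate numbers were given in accession order and pair no mice. Litter, which holds both genotypes, was fitted as a covariate instead. Trib3 and Chac1 rest on few counts per library, litters are small, and 1 mouse can decide a call. Of 434 values of the 10 genes under the alternatives other than leaving out a mouse, 415 kept their direction and side of the threshold, 14 reversed (10 log2 differences and 4 relations with KBW), and 5 came to pass it. The causes were not tested, except that the filter of at least 10 counts in every mouse removed Trib3 and Chac1.

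Members called were 1 in males with DESeq2's Wald test and 1 without a filter (0 as reported), and in both sexes together 2 with the Wald test, 2 with the length covariate and 0 with at least 10 counts in every mouse (1 as reported). Shares of all genes called in these fits were 10.5% and 8.21% in males (8.46% as reported). In both sexes together the shares were 15.6%, 19.4% and 15.7% in that order (15.9% as reported). Between control sexes 2 were called without the litter term (1 as reported), beside 21.9% of all genes (17.8% as reported). Genes of the 9 lists called were 22 in males with the Wald test (13 as reported), beside 10.5% of all genes (8.46% as reported). In females list genes called were 12 with the Wald test, 4 without a filter, 10 with all 20 mice in 1 fit and 0 with the length covariate (2 as reported). The shares of all genes in these female fits were 4.87%, 1.19%, 5.7% and 0.332% (0.637% as reported). In both sexes together list genes called were 32 with the Wald test and 35 with the length covariate (20 as reported), beside 15.6% and 19.4% of all genes. Between control sexes they were 17 with all mice in 1 fit and 56 with the length covariate (32 as reported), beside 12.1% and 26.9% of all genes (17.8% as reported). Between mutant sexes they were 38 with all mice in 1 fit and 32 with DESeq2's Wald test (11 as reported), beside 16.2% and 9.84% of all genes (5.42% as reported).

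The log2 values that reversed were, without the litter term, Xbp1 in males (−0.041) and in both sexes (−0.031), Atf6 in both sexes (0.01) and Xbp1 in the sex-by-genotype term (−0.0017). With the length covariate they were Ern1 in males (−0.018) and Atf4 between control sexes (0.025), which was also 0.0034 with DESeq2 size factors and 0.0071 with the Wald test. Atf6 in both sexes was 0.0 with at least 10 counts, and the sex-by-genotype term of Chac1 was 0.008 without a filter. The relation with KBW turned for Ern1 and Atf6 to r = −0.23 and −0.13 with sex means removed, and to slopes of −0.30 and −0.081.

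Over all genes, leaving out single mice moved the number called between control sexes from 2510 to 1223 (without MC4) and between mutant sexes from 782 to 246 (without FM1) or 1330 (without FM4). With each mouse left out in turn, members called ranged from 0 to 1 in males, 0 to 2 in both sexes and 0 to 2 between control sexes, and list genes from 1 to 20 in males, 0 to 7 in females, 15 to 32 in both sexes, 13 to 31 between control sexes and 5 to 17 between mutant sexes. Log2 values that reversed at least once ranged in males from −0.14 to 0.11 (Ern1), −0.0040 to 0.081 (Atf6) and −0.020 to 0.12 (Xbp1). In females they ranged from −0.44 to 0.094 (Ern1), −0.14 to 0.058 (Atf6), −0.090 to 0.048 (Xbp1) and −0.13 to 0.035 (Hspa5). In both sexes they ranged from −0.19 to 0.050 (Ern1), −0.044 to 0.048 (Atf6), −0.025 to 0.043 (Xbp1) and −0.0046 to 0.12 (Hspa5). Between control sexes they ranged from −0.13 to 0.57 (Ern1), −0.016 to 0.20 (Atf6), −0.13 to 0.064 (Eif2ak3) and −0.21 to 0.14 (Atf4). The sex-by-genotype term ranged from −0.028 to 0.48 (Ern1), −0.079 to 0.24 (Atf4), −0.11 to 0.24 (Ddit3) and −0.35 to 0.20 (Chac1), and r with KBW from −0.054 to 0.52 (Atf4), −0.0079 to 0.32 (Chac1) and −0.14 to 0.19 (Asns).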

Other observations

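Among 13780 genes compared, those most opposed to Trib3 over the 20 mice with the group means removed, looked up after the data were seen, were Nr1d2 (r = −0.82, permutation p = 3e-05 within groups, adjusted p = 0.0517, rho = −0.84), Per3 (r = −0.80, permutation p = 2e-05, adjusted p = 0.0459, rho = −0.81) and Rere (r = −0.79, permutation p = 0.00047, adjusted p = 0.166, rho = −0.83). Nr1d2 and Per3 belong to the circadian clock. Without the 2 mice farthest from the median of each gene, r was −0.79, −0.75 and −0.77. Only 6 genes had an adjusted p under 0.05 in this relation. The p of Nr1d2 and Per3 lay near the smallest that 100000 permutations can give. Their side of the threshold, and the count of 6, can therefore turn on a few permutations.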
